A study of Mus musculus with 12 samples.

Results

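AML12 cells that overexpressed class I histone deacetylases (HDACs) with the YF mutation were compared with control cells, without inhibitor in either group. The comparison used 6 of the 12 RNA libraries of the series, 3 from each group, and 13346 of the 19037 genes in the expression table, which were those that passed a filter on low counts. AML12 is an established mouse hepatocyte line, derived from a mouse that carried a human transforming growth factor alpha transgene. The remaining 6 libraries came from AML12 cells given FK228, also called romidepsin, which inhibits class I HDACs, alone or together with the YF mutants. The descriptions of the control and FK228 libraries hold a GFP code whose meaning the labels leave out. The sources used here give neither the HDACs that were mutated, nor the way the constructs were introduced, nor the dose or the times. The labels do not say how the replicates of a group arose, so the spread among libraries that a p-value rests on may be technical. That spread was estimated over all 12 libraries of the series.

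Class I HDACs (HDAC1, HDAC2, HDAC3 and HDAC8) are zinc enzymes that take acetyl groups off lysines of histones and other proteins. HDAC1 and HDAC2 work inside the Sin3, NuRD and CoREST corepressor complexes, and HDAC3 works with the NCoR and SMRT corepressors. A tyrosine next to the zinc ion holds the substrate's carbonyl group during the reaction. YF usually stands for the exchange of that tyrosine for phenylalanine, which leaves a protein with little deacetylase activity that can still enter its complexes. The labels do not spell the exchange out. In hepatocytes, class I HDACs are known for the control of lipid synthesis and of hepatocyte identity genes.

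The mouse codons for this tyrosine in Hdac1, Hdac2 and Hdac8 are shown because they mark the site that YF usually refers to. Hdac3 was not searched for this codon, so its absence here does not mean that it lacks the site. Each stretch holds 45 coding bases of the GENCODE transcript on GRCm38, 5′ to 3′, and the capitals mark the tyrosine codon. It is codon 303 of 482 in Hdac1 (exon 9 of 14, chr4:129518901-129518903, minus strand), codon 304 of 488 in Hdac2 (exon 9 of 14, chr10:36997057-36997059, plus strand) and codon 306 of 377 in Hdac8 (exon 9 of 11, chrX:102402672-102402674, minus strand).
Hdac1: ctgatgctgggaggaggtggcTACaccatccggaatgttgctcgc
Hdac2: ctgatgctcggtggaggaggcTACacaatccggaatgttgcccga
Hdac8: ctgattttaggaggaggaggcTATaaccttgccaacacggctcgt
Hdac1 and Hdac2 share 39 of the 45 bases, Hdac1 and Hdac8 share 29, and Hdac2 and Hdac8 share 27. Construct sequences were not used here, and reads from a construct that matches a mouse gene cannot be told apart from reads of that gene.

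Levels below are CPM (counts relative to the library total) with TMM scaling, given per library in the order of the replicate numbers or as mean ± SD (n = 3 libraries). Changes are log2 fold changes of YF over control ± SE, and a gene is called at a Benjamini-Hochberg adjusted p of 0.05 in edgeR's quasi-likelihood test. Total estimated counts ran from 23664446 to 26122998 per library over the series. Genes with a count above zero numbered 14984 to 15025 in control and 15810 to 16084 in YF libraries. The first principal component of the 6 libraries held 69.6% of the variance and separated the groups, with control between -35.4 and -30.2 and YF between 30.9 and 36.0. The second held 10.9% and separated libraries within groups.

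The messages of 2 class I HDAC genes rose with YF. Hdac1 (chr4:129516104-129542646, gene ID 433759) measured 101, 101 and 91.8 CPM in the control libraries and 419, 382 and 405 CPM in the YF libraries. The groups did not overlap, and the change was 2.04 ± 0.06 (adjusted p = 6.12e-16). Hdac8 (chrX:102284638-102505381, gene ID 70315) measured 18.4, 18.2 and 17.3 CPM in control and 41.2, 40.8 and 44.4 in YF, a change of 1.23 ± 0.07 (adjusted p = 5.01e-11). Each YF library again lay above every control library. Hdac2 (chr10:36974297-37001889) measured 185, 172 and 171 CPM in control and 189.8, 194 and 184 in YF, and the groups overlapped (0.10 ± 0.06, adjusted p = 0.165). Hdac3 (chr18:37936971-37955015) measured 107, 107 and 102 CPM in control and 115, 109.7 and 115 in YF. Its groups did not overlap, yet the change of 0.10 ± 0.05 did not pass the test (adjusted p = 0.13). Per length, in the authors' TPM (transcript abundance scaled by length and library size), Hdac2 was at 111 ± 7.03 in control, Hdac3 at 66.7 ± 3.63, Hdac1 at 63.1 ± 5.13 and Hdac8 at 9.29 ± 0.560. Hdac1 and Hdac3 were within their spread of each other in that order. With YF the order became Hdac1 (274 ± 20.2 TPM), Hdac2 (126 ± 3.25), Hdac3 (75.8 ± 3.97) and Hdac8 (29.8 ± 1.14).

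**Figure D1:**
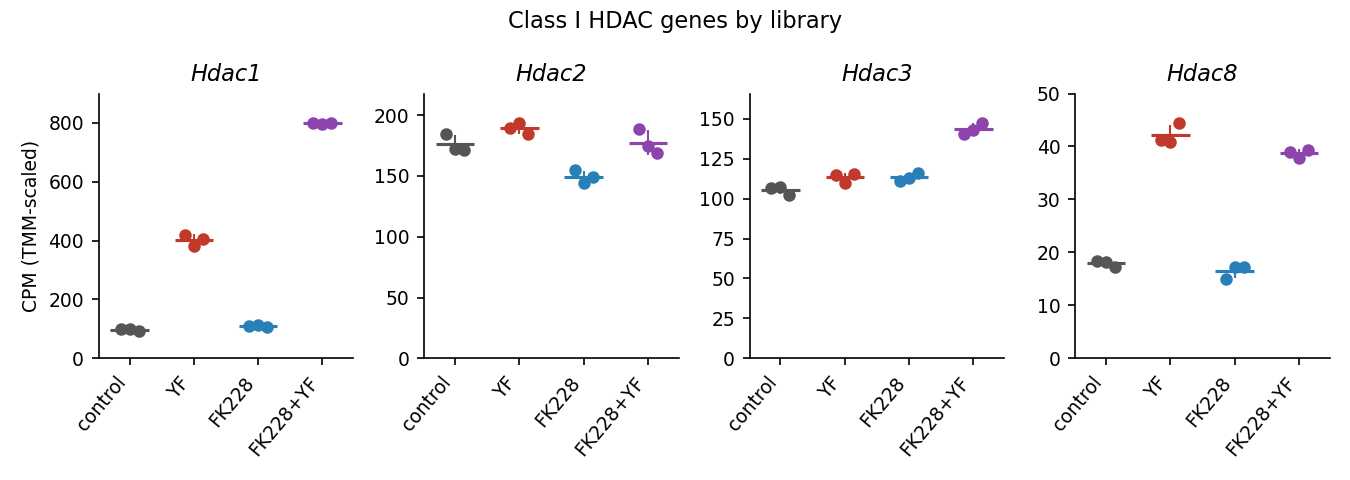
CPM (TMM-scaled, linear axis from 0) of the 4 class I HDAC genes in each of the 12 libraries, with the group mean as a horizontal line and the SD as a vertical line (n = 3). Hdac1 and Hdac8 lie higher in every library with YF than in every library without it, while the Hdac2 and Hdac3 groups differ by far less.

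Of the 13346 genes tested, 4357 (32.6%) were called, 2405 higher with YF (18% of those tested) and 1952 lower (14.6%). The 3 YF libraries lay entirely above or below the 3 control libraries for 5871 genes (44%). Most called changes were small: 2923 of them (67.1%) were under 1.5-fold, and the median size was 0.38 on the log2 scale. The median over all tested genes was 0.01. Large changes were mostly increases, with 749 genes at least 2-fold higher (5.61%) and 111 at least 2-fold lower (0.832%). At 4-fold or more there were 397 higher and 7 lower genes, and 376 of the 397 had a control level under 1 CPM. A gene near zero in control passes the filter only through a group in which it is higher, so the counts at low control levels lean upward by construction. Among the 2103 genes with 100 CPM or more in control, the balance was the other way, with 174 higher (8.27%) and 541 lower (25.7%). Of these, 5 were at least 2-fold higher and 7 at least 2-fold lower. In the range of 10 to 100 CPM, 1120 of 7246 genes were higher and 1172 lower.

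**Figure D2:**
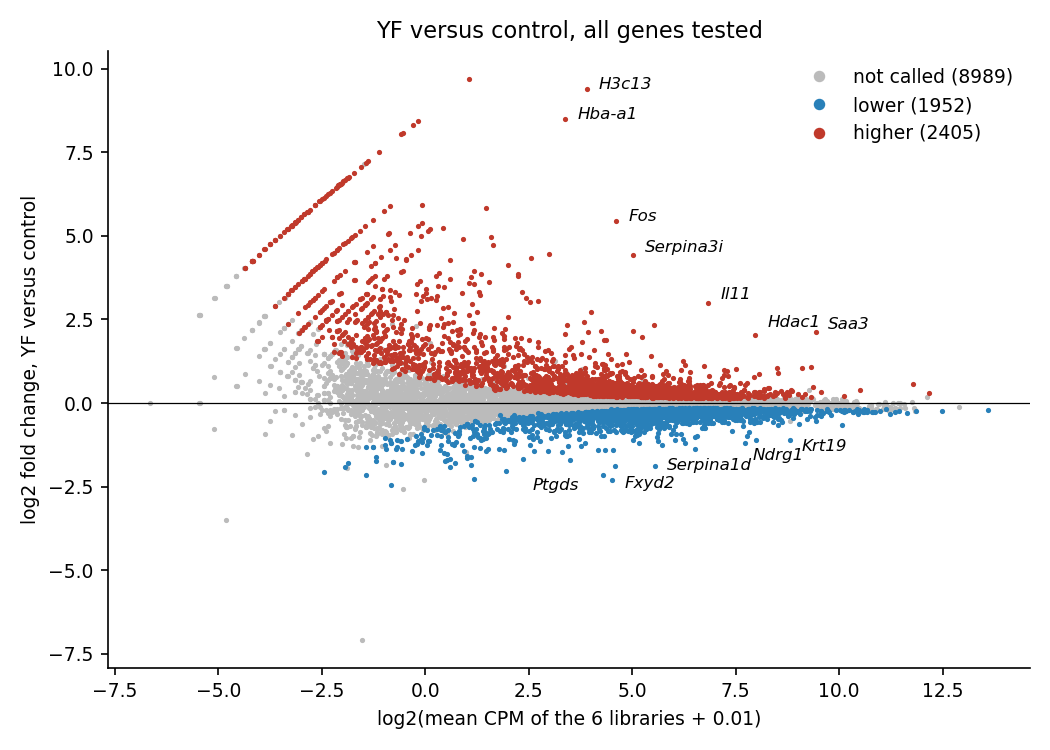
Log2 fold change of YF over control against log2 of the mean CPM of the 6 libraries plus 0.01, with 1 point per tested gene. Red points are the 2405 genes called higher, blue points the 1952 called lower and grey points the rest. Large increases lie at low and middle levels, and the labelled genes are described in the text.

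The largest rises among genes with a mean of at least 5 CPM over the 6 libraries came from a histone gene, a globin gene and an immediate early gene. H3c13 (chr3:96268654-96269155, gene ID 319154) encodes a replication-dependent histone H3. It measured 0, 0 and 0.117 CPM in control and 32.7, 25.6 and 30.8 CPM in YF, from 3 counts in control and 2309 in YF, a count ratio of 767 (95% exact counting interval 262 to 3720.3). Hba-a1 (chr11:32283672-32284486, gene ID 15122) encodes alpha globin, the oxygen carrier subunit of red cells. It measured 0.0775, 0.0771 and 0 CPM in control and 25.7, 14.5 and 21.6 CPM in YF, a count ratio of 398 (95% exact counting interval 155 to 1461). Both were close to zero in every control library and passed the filter only through other libraries. Such intervals cover counting error alone, since PCR copies of a molecule were not marked. Both genes have near-identical copies, so reads may be split between copies. The other alpha globin copy, Hba-a2, had no count in control and at most 0.305 CPM with YF.

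Fos (chr12:85473890-85477274, gene ID 14281) encodes a subunit of the transcription factor AP-1 and is induced within minutes of growth factor signals. It measured 1.24, 1.08 and 0.933 CPM in control and 52.5, 42.3 and 48.6 CPM in YF (5.46 ± 0.13, adjusted p = 1.12e-17). Il11 (chr7:4772373-4782907, gene ID 16156) encodes the secreted cytokine interleukin 11 and had the highest YF level in CPM among the 12 largest rises. It measured 26.9, 21.7 and 26.9 CPM in control and 184, 214 and 207 CPM in YF (3.00 ± 0.10, adjusted p = 1.83e-12). In both genes the lowest YF library was several times above the highest control library. C1s1, a protease of the first complement complex, went from 0.542, 0.694 and 0.817 to 16.4, 13.8 and 15.7 CPM (4.47 ± 0.21). Serpina3i, a serine protease inhibitor gene, went from 2.52, 3.51 and 2.61 to 57.3, 66.7 and 60.9 CPM (4.42 ± 0.15), and its neighbour Serpina3g from 2.91, 5.9 and 3.89 to 28.8, 27.8 and 27.5 CPM (2.73 ± 0.16). The remaining 5 were Ndrg4 (4.33 ± 0.21), the G protein regulator Rgs16 (3.34 ± 0.19), the chitinase-like secreted protein gene Chil1 (3.15 ± 0.17), the glycoprotein-binding ubiquitin ligase subunit Fbxo2 (3.06 ± 0.13) and the ephrin gene Efna3 (3.02 ± 0.14). Separate groups were a condition for naming these 12, which were all called in each of the 12 fits that left out 1 library.

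The upstream bases of 4 genes are shown because 3 of these genes are among the largest rises and H3c11 is of the same family as H3c13. The sequences are RefSeq promoters on GRCm38.p6, 250 bases that end at the annotated start, 5′ to 3′ on the strand of the gene. Capitals mark matches to CCAAT (the CCAAT box), TATAAA (the TATA box), TGANTCA (the AP-1 site) and TGACGTCA (the cyclic AMP response element). The windows are chr3:96268404-96268653 (plus strand) for H3c13, chr13:21783398-21783647 (minus) for the related histone gene H3c11, chr12:85473640-85473889 (plus) for Fos and chr7:4778142-4778391 (minus) for 1 of the 2 annotated starts of Il11.
H3c13: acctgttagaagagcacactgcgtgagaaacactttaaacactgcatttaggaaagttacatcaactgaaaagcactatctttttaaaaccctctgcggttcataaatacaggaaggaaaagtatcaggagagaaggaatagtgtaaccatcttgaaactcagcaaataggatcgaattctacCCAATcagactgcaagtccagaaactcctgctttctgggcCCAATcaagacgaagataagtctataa
H3c11: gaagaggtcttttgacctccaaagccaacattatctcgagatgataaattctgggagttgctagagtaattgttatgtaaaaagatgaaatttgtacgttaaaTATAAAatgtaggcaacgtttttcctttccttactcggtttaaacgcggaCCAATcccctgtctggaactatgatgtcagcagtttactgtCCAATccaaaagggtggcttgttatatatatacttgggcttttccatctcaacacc
Fos: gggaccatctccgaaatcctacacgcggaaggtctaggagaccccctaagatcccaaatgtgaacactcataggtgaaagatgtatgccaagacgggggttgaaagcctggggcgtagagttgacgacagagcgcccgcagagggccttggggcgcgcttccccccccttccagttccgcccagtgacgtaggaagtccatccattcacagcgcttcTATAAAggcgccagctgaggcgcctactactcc
Il11: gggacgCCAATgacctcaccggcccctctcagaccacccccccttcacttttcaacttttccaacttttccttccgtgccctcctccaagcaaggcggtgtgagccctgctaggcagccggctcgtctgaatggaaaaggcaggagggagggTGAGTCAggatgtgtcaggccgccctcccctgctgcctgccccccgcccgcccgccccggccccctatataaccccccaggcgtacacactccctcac
Both histone windows hold 2 CCAAT matches, at 67 and 27 bases before the start in H3c13 and at 97 and 56 in H3c11, and the H3c11 window holds TATAAA at 147. The Fos window holds a TATA match 33 bases before the start. The Il11 window holds the AP-1 match TGAGTCA 98 bases before the start, a CCAAT match stands at 244, and the window of the other Il11 start holds no AP-1 match. Over all 13611 promoters of the 10651 tested genes that the RefSeq table covers, 36.0% held CCAAT on either strand, 6.94% TATAAA, 4.96% the AP-1 letters and 2.46% TGACGTCA. The AP-1 letters stood in 10.03% of 738 promoters of genes at least 2-fold higher and in 11.6% of 95 promoters of genes at least 2-fold lower. GC content differed too, with medians of 59.2% over all, 55.6% for the 2-fold higher and 51.2% for the 2-fold lower promoters, and its part in these shares was not tested. TATAAA stood in 10.4% and 17.9% of the same 2 sets and CCAAT in 38.3% and 40.0%. Shares were lower than over all promoters for TGACGTCA, at 1.63% and 1.05%, and for the GC box GGGCGG, at 42.8% and 20% against 54.9%. Such matches describe the letters and are not shown to be bound sites.

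The largest falls came from genes of transporters, enzymes and secreted proteins. Fxyd2 (chr9:45399709-45410278, gene ID 11936) encodes a regulatory subunit of the sodium pump. It measured 30.1, 45.7 and 37.2 CPM in control and 9.17, 4.92 and 8.87 CPM in YF (-2.30 ± 0.22, adjusted p = 1.07e-05). Ptgds, a prostaglandin D2 synthase, measured 26.6, 35.1 and 34.8 CPM in control and 8.81, 4.5 and 8.3 in YF (-2.16 ± 0.18, adjusted p = 2.38e-07). Serpina1d and Serpina1b encode forms of alpha-1-antitrypsin, the main protease inhibitor that the liver secretes, and are near-identical copies. Serpina1d measured 59, 98.7 and 62.7 CPM in control and 24.4, 12.9 and 21.9 in YF (-1.90 ± 0.27, adjusted p = 0.000687), and Serpina1b changed by -1.88 ± 0.23. The lowest YF value was that of replicate 2 in each. Ttr (-1.42 ± 0.27) encodes the thyroid hormone carrier transthyretin, and Nfia (-1.40 ± 0.24) a transcription factor. Ggt1 (-1.69 ± 0.15) encodes gamma-glutamyl transferase, which breaks down extracellular glutathione. The amino acid transporter gene Slc6a18 (-1.67 ± 0.20), the peroxisomal oxidase gene Pipox (-1.48 ± 0.16), the secreted guidance cue gene Sema3a (-1.45 ± 0.12), Neurl1b (-1.41 ± 0.17), an E3 ligase of Notch ligands, and Acnat1 (-1.38 ± 0.21), an acyltransferase of peroxisomes, complete the 12. Control replicate 1 was the lowest control library for 10 of these 12 genes and YF replicate 2 the lowest YF library for 11. Nfia, for example, measured 15.2, 30.3 and 32.3 CPM in control and 9.72, 9.53 and 10.2 in YF. All 12 stayed called in every fit that left out 1 library, with Nfia between -1.67 and -1.21 and Ttr between -1.61 and -1.11.

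**Figure D3:**
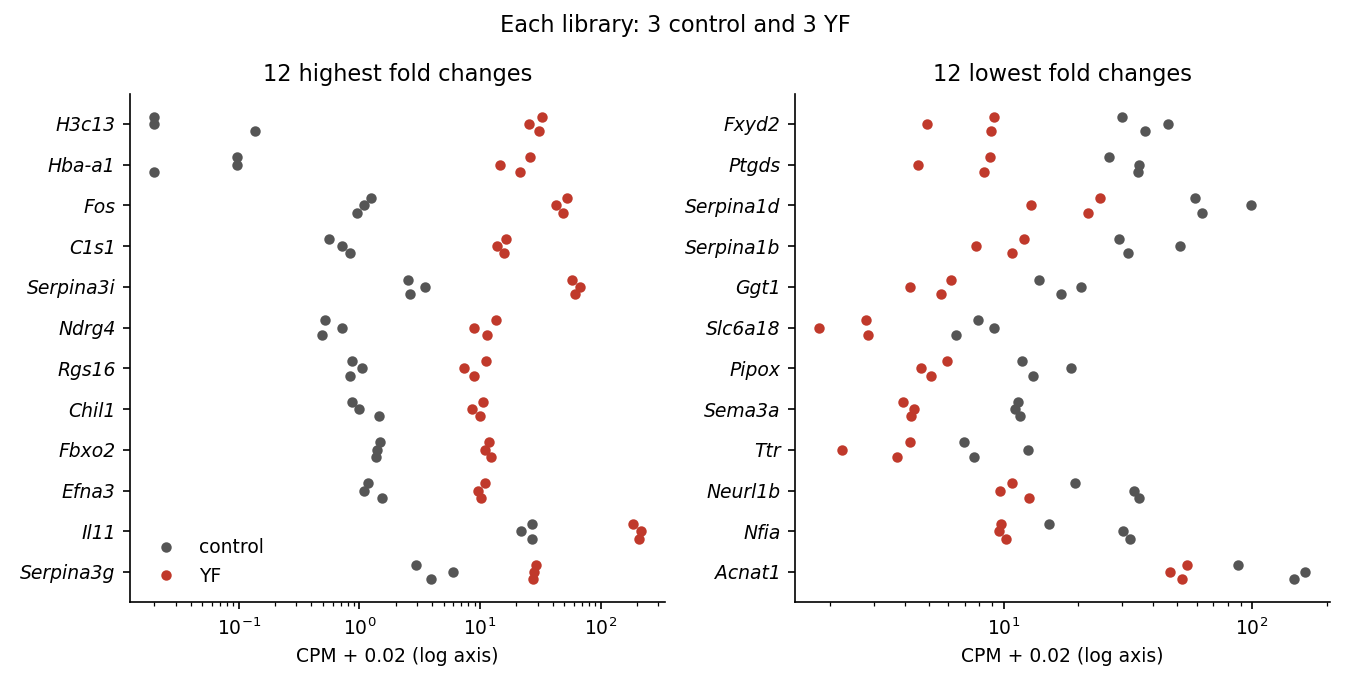
CPM plus 0.02 on a log axis for the 12 largest rises (left) and the 12 largest falls (right) among called genes with a mean of at least 5 CPM, with 1 point per library (grey for the 3 control, red for the 3 YF libraries). Separate groups were a condition for the choice, and YF replicate 2 is the lowest YF library for 11 of the 12 genes on the right.

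Among genes with at least 100 CPM in control, the 8 largest rises held secreted and matrix proteins. Saa3, an acute phase serum amyloid A, measured 229, 252 and 293 CPM in control and 1143, 1059.5 and 1174 CPM in YF (2.13 ± 0.09, adjusted p = 5.08e-13). Fn1, the matrix protein fibronectin, measured 386, 416 and 431 and 937, 789 and 879 CPM (1.08 ± 0.08, adjusted p = 2e-09). Relative to their mean, the control libraries differed more in Saa3 than in Fn1. The early response gene Ier3 (1.04 ± 0.08), the metal-binding metallothionein Mt2 (1.02 ± 0.13), the small GTPase Rnd1 (0.99 ± 0.07), the matricellular protein gene Ccn2 (0.95 ± 0.11) and the chloride channel regulator Clca3b (0.83 ± 0.06) were also among them.

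The 8 largest falls at that level held Acnat1, already described, and 7 others. Krt19, a keratin of bile duct and progenitor cells, measured 511, 649 and 659 CPM in control and 311, 265 and 277 CPM in YF (-1.09 ± 0.08, adjusted p = 1.49e-08). Ccl9, a chemokine, measured 117, 103 and 105 and 47.1, 49.9 and 44.3 CPM (-1.20 ± 0.08, adjusted p = 3.79e-10). Ndrg1, a gene that responds to hypoxia, measured 217, 331 and 331 and 141, 106 and 135 CPM (-1.20 ± 0.16, adjusted p = 0.000217), so control replicate 1 lay nearest the YF libraries. The retinaldehyde reductase Dhrs3 (-1.11 ± 0.14), Nrep (-1.07 ± 0.10), the growth factor receptor Fgfr2 (-1.01 ± 0.09) and the endoplasmic reticulum oxidase Ero1a (-0.99 ± 0.16) completed the list. Separate groups were again a condition for naming these abundant genes.

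Gene groups are given next by how many of their tested members were called, to be read against 18% higher and 14.6% lower among all genes. In the complexes that class I HDACs work in, decreases outnumbered increases. Of 38 corepressor subunit genes, 13 fell and 1 rose, with a median of -0.12. Tbl1xr1, a core subunit of the NCoR complex that binds HDAC3, fell from 44.8 ± 9.61 to 23.1 ± 1.95 CPM (-0.96 ± 0.12). Gatad2b (-0.56 ± 0.09) and Chd3 (-0.30 ± 0.05), both of NuRD, fell too. The fallen count was 8 without control replicate 3 or from the compared groups alone and 7 without YF replicate 3, and the risen count was 0 without control replicate 3, YF replicate 1 or YF replicate 3, 3 without control replicate 1 and 2 without YF replicate 2. Among 20 acetyltransferase and bromodomain genes, 3 fell, including the coactivator Crebbp (17.5 ± 4.32 to 10.5 ± 1.43 CPM, -0.74 ± 0.14) and Kat2b (-0.36 ± 0.08), and none rose. Leaving out control replicate 1, YF replicate 1 or FK228+YF replicate 3 gave 2, 1 and 1 rises. Of the 14 other deacetylase genes, 1 rose, 1 fell and 12 were not called. Hdac6, a cytoplasmic tubulin deacetylase, rose (0.31 ± 0.05) and Hdac7 fell (-0.18 ± 0.07). The fallen count ran from 0 to 2 over the fits that left out 1 library.

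The replication-dependent histone genes are transcribed in S phase and carry no poly(A) tail. Of 33 tested, 7 rose, 1 fell and 25 were not called (median 0.18). A further 27 of the 60 in the expression table were not tested. The risen count is to be read with the upward lean of the filter. The fallen gene was H2bc21 (-0.31 ± 0.10). The fallen count was 0 from the compared groups alone and ran from 1 to 2 over the fits that left out 1 library. H3c11 measured 0.0775, 0.308 and 0.272 CPM in control and 6.92, 4.12 and 6.74 CPM in YF (4.72 ± 0.34, adjusted p = 6.53e-09). H1f2, a linker histone, went from 5.73 ± 0.318 to 9.33 ± 1.38 CPM (0.70 ± 0.12). The summed level of the family was 148 to 178 CPM in control libraries and 178 to 191 in YF libraries, and the ranges overlapped. The rise of H3c13 alone was larger than the difference between the mean sums of the 2 groups. Among 10 histone variant genes none rose and 3 fell, such as H3f3a, the H3.3 gene (1207 ± 45.1 to 1019 ± 40.8 CPM, -0.24 ± 0.06). Few genes of cell division passed the test: 1 of 41 mitosis genes was called (median 0.00) and 4 of 45 DNA replication genes (median 0.10). These few calls depended on single libraries. The mitosis count was 0 when replicate 2 or 3 of either group was left out and 2 without control replicate 1. The replication count was 0 without control replicate 2 or 3, 1 without YF replicate 2 and 15 without control replicate 1. Cell cycle regulators moved more, with 11 of 35 higher and 3 lower. Ccne1, cyclin E1, rose from 10.8 ± 2.17 to 23.3 ± 1.41 CPM (1.10 ± 0.11), while the kinases Cdk6 (-0.93 ± 0.15) and Cdk4 (-0.39 ± 0.06) fell.

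The rise of Fos was shared by only some genes of its class. Of 26 AP-1 and immediate early genes, 7 rose and 2 fell (median 0.10). The fallen count was 1 when replicate 2 or 3 of either group was left out, with a replicate block and from the compared groups alone. Fosl1, another AP-1 subunit gene, measured 13.9, 10 and 14 CPM in control and 28, 26.9 and 29.4 in YF (1.15 ± 0.12). Jun, the usual partner of Fos, fell from 59.8 ± 2.22 to 44.9 ± 3.38 CPM (-0.41 ± 0.07), and Junb and Fosl2 were not called. Of 17 feedback inhibitors of MAP kinase signalling, 8 rose and 1 fell (2 without control replicate 1), with a median of 0.30. Dusp5, a phosphatase of nuclear ERK, rose from 5.38 ± 0.355 to 11.7 ± 0.202 CPM (1.12 ± 0.10), and Dusp1 (0.69 ± 0.14), Spry1 (0.55 ± 0.08) and Dusp4 (0.54 ± 0.11) rose with it.

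Genes of developmental signalling pathways changed in both directions. The share called was 30% in the Hedgehog and 38.9% in the Notch list, near the 32.6% of all tested genes. In the Hedgehog pathway 2 of 10 genes rose and 1 fell. The target and transcription factor Gli1 measured 0.232, 0.231 and 0.0778 CPM in control and 7.31, 5.07 and 4.91 CPM in YF (4.96 ± 0.27, adjusted p = 1.32e-11), while Smo, the signal transducer, fell (-0.37 ± 0.05). Gli1 passed the filter only through libraries other than control, so its rise is to be read with the upward lean of the filter. The receptor and target Ptch1 rose by 0.22 ± 0.07, a call lost without control replicate 3 (0.17), YF replicate 1 (0.21) or YF replicate 3 (0.22), which leaves 1 rise in the pathway. In the WNT pathway 8 of 26 genes rose and 7 fell. Axin2, a target and inhibitor of the pathway, measured 9.18, 7.74 and 9.02 and 23.2, 21.7 and 22.3 CPM (1.37 ± 0.10), and the ligand gene Wnt7a rose by 1.31 ± 0.11. Wnt4 (-0.61 ± 0.08), Wnt10a (-0.49 ± 0.06) and the receptor gene Lgr4 (-0.62 ± 0.10) fell. In the Notch pathway 4 of 18 rose and 3 fell. The receptors Notch3 (1.05 ± 0.14) and Notch1 (0.51 ± 0.09) rose and the ligand Jag1 fell from 104 ± 8.26 to 70.4 ± 1.95 CPM (-0.57 ± 0.07). Of 32 TGF-beta and BMP genes, 7 rose and 11 fell. The target Ccn2 was among the risen, and the receptor Tgfbr1 (228 ± 18.4 to 161 ± 11.6 CPM, -0.50 ± 0.08) and the inhibitor Smad7 (-0.54 ± 0.10) among the fallen. In the IGF axis 7 of 16 fell (4 without control replicate 3) and 2 rose, with the binding protein gene Igfbp3 at 0.619 ± 0.115 and 2.92 ± 0.148 CPM (2.23 ± 0.23).

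Matrix genes moved both ways, and the called keratin and junction genes all fell. Of 32 matrix genes, 9 rose and 6 fell, and the glycoproteins tenascin C (Tnc, 44.4 ± 4.69 to 106 ± 2.3 CPM, 1.26 ± 0.09) and fibulin 2 (Fbln2, 1.11 ± 0.07) rose beside Fn1. Col18a1 (-0.40 ± 0.06) and Sparc (-0.34 ± 0.06) fell. Of 24 metalloproteases and inhibitors, 10 rose and 1 fell (2 without control replicate 1). The collagenase gene Mmp13 measured 1.28, 1.04 and 1.4 CPM in control and 4.11, 5.91 and 4.72 in YF (1.98 ± 0.21), and Adam12 (1.56 ± 0.20) and Adam8 (0.94 ± 0.06) rose as well. Of 21 keratin and junction genes none rose and 9 fell (median -0.19). Their summed level was 5220.2, 5383 and 5485 CPM in the control libraries and 4434, 4438 and 4383 in the YF libraries. Krt7 (-0.59 ± 0.09), the desmosomal cadherin Dsg2 (-0.34 ± 0.06) and plakoglobin (Jup, -0.32 ± 0.07) fell beside Krt19. Of 14 integrin genes 2 fell (1 without control replicate 1 or 2 or YF replicate 1 or 3, or from the compared groups alone) and 6 rose, among them Itgb1 (394 ± 12 to 515 ± 33.3 CPM, 0.39 ± 0.07).

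Many hepatocyte transcription factor genes fell, and many secreted liver proteins rose. Of 22 factor genes, 13 fell and 1 rose (median -0.32). The fallen count was 7 without control replicate 2 and 8 without YF replicate 2, and 2 rose without control replicate 1 or YF replicate 2. Hnf4a, a central regulator of hepatocyte genes, measured 175, 186 and 172 CPM in control and 127, 116 and 121 in YF (-0.55 ± 0.06, adjusted p = 4.61e-07). Nfib (-0.82 ± 0.13) and the xenobiotic receptor gene Nr1i2 (-0.79 ± 0.17) fell too, and Cebpd, an acute phase factor, rose (0.75 ± 0.07). Of 23 secreted hepatocyte proteins, 13 rose and 3 fell (median 0.27). The acute phase genes Saa1 (2.98 ± 0.28) and Saa2 (2.57 ± 0.29) rose beside Saa3, and so did Itih2 (1.33 ± 0.13). Apoa1 fell from 1.43 ± 0.284 to 0.653 ± 0.182 CPM (-1.12 ± 0.30). Of 26 serpin genes, 12 rose and 4 fell (2 without control replicate 2), with a median of 0.78. In a cluster on chromosome 12 from 103728156 to 104414334, 2 of 3 tested Serpina1 genes fell and 5 of 5 tested Serpina3 genes rose. The rises there were Serpina3c, Serpina3f (0.607 ± 0.216 to 8.84 ± 0.653 CPM), Serpina3g, Serpina3i and Serpina3n (0.426 ± 0.104 to 5.36 ± 0.817 CPM). Serpina3c, at 0.013 CPM in control and 0.489 in YF, passed the filter only through libraries other than control. Of 15 Serpina1 and Serpina3 genes in and beside this span, 8 were tested. The untested ones had means of at most 0.309 CPM in control and 0.115 in YF. The risen count is to be read with the upward lean of the filter. Of 31 complement and coagulation genes, 15 rose and 5 fell (median 0.50). C4b, a component of the classical pathway, went from 1.83 ± 0.45 to 7.15 ± 2.75 CPM. Proc, the anticoagulant protein C gene, fell (-0.57 ± 0.08).

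Drug and antioxidant enzymes went both ways. Of 30 cytochrome P450 genes, 9 rose and 7 fell. The brain-type cholesterol hydroxylase gene Cyp46a1 went from 0.633 ± 0.164 to 2.93 ± 0.349 CPM, and Cyp2j5 (-2.27 ± 0.29) and Cyp2d26 (-1.85 ± 0.31) fell. Reads of P450 genes can be split between near-identical copies. Of 51 glutathione and conjugation genes, 15 rose and 11 fell (7 without control replicate 2), with the sulfotransferase Sult1c2 at 64.1 ± 8.08 and 32 ± 2.42 CPM. Blvrb, a biliverdin reductase of heme breakdown, rose from 23.9 ± 2.98 to 63.5 ± 2.24 CPM (1.41 ± 0.09). Ass1, the urea cycle enzyme argininosuccinate synthase, measured 11.3, 13.6 and 10.6 CPM in control and 57.4, 47 and 53.6 in YF (2.15 ± 0.11, adjusted p = 2.55e-11), with no overlap.

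Lipid and sugar metabolism changed in part of its genes. Of 27 acetyl-CoA and fatty acid synthesis genes, 4 rose and 10 fell. Acss2, the enzyme that joins acetate to coenzyme A, went from 7.19 ± 0.561 to 19.8 ± 1.17 CPM (1.46 ± 0.08), and the desaturase Scd2 fell (-0.52 ± 0.07). Of 29 fatty acid uptake and storage genes, 8 rose and 6 fell (3 when replicate 2 or 3 of either group was left out or the compared groups were fitted alone). The fatty acid transporter gene Cd36 measured 0.116, 0.0385 and 0 CPM in control and 1.98, 1.87 and 2.21 in YF, a count ratio of 39.1 (95% exact counting interval 15 to 145). The carrier gene Fabp4 rose from 0.0902 ± 0.0445 to 5.42 ± 0.178 CPM. Cd36 and Fabp4 passed the filter only through libraries other than control. Cideb, a lipid droplet protein, fell (-0.82 ± 0.10). Of 47 glycolysis, gluconeogenesis and hypoxia genes, 9 rose and 14 fell (9 without control replicate 2, 8 without control replicate 3). Their summed level was 18368, 21392 and 23127 CPM in the control and 19942, 18657 and 19342 in the YF libraries, so control replicate 1 lay below all YF libraries while the other control libraries lay above them. Pcx, pyruvate carboxylase, rose from 12.8 ± 0.89 to 31.9 ± 2.85 CPM (1.32 ± 0.08). Abca1, the cholesterol exporter, rose (1.67 ± 0.27), and Hmgcs1, of cholesterol synthesis, fell (-0.47 ± 0.07).

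Among stress genes rises outnumbered falls, and most were small. Of 40 genes of the integrated stress response and serine synthesis, 23 rose and 3 fell (1 without YF replicate 3), with a median of 0.27. Aldh1l2, a mitochondrial folate enzyme, measured 1.16, 0.925 and 1.17 CPM in control and 4.9, 5.53 and 5.1 in YF (2.25 ± 0.16). Slc1a4, an amino acid transporter, rose by 0.70 ± 0.10 and the pseudokinase gene Trib3 by 0.68 ± 0.13. Of 38 chaperone genes 18 rose and 1 fell (median 0.16), among them the stress sensor Ern1 (9.46 ± 3.24 to 19.5 ± 0.578 CPM, 1.05 ± 0.19) and the small heat shock protein Hspb1 (0.56 ± 0.08). Of 39 lysosome and autophagy genes 15 rose and 1 fell, with Wipi1 at 0.86 ± 0.08. The fallen chaperone count was 0 without replicate 1 or 3 of either group, 2 without control replicate 2 and 3 without FK228 replicate 1 or 3. The fallen lysosome count was 2 without control replicate 1 and 0 without any other control or YF library. In the p53 target list 14 of 34 rose, such as Mdm2 (154 ± 9.35 to 233 ± 0.854 CPM, 0.60 ± 0.05) and Tigar (0.61 ± 0.08). In that list 5 fell, among them Gadd45b (-0.51 ± 0.08), a count that was 3 without control replicate 2 or YF replicate 3 or from the compared groups alone and 1 without control replicate 3 or YF replicate 2. In the metallothionein and zinc list 7 of 21 rose and 3 fell, the latter including the zinc importer Slc39a1 (136 ± 24.1 to 90.1 ± 3.02 CPM, -0.59 ± 0.09).

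Immune genes changed in both directions. Of 36 interferon stimulated genes, 14 rose and 4 fell (2 without control replicate 2). Usp18 (1.44 ± 1.06 to 4.64 ± 1.5 CPM, 1.67 ± 0.38) and Oas1a (0.206 ± 0.0446 to 1.81 ± 0.569 CPM) rose, and the interferon regulatory factor Irf1 fell from 125 ± 13.2 to 88.6 ± 2.23 CPM (-0.50 ± 0.07). Without control replicate 2 the change of Usp18 was 2.46. Oas1a passed the filter only through libraries other than control. In the MHC class I pathway 7 of 20 rose and 4 fell (2 without control replicate 2). The coactivator gene Nlrc5 measured 0.116, 0.193 and 0.194 CPM in control and 2.05, 1.75 and 1.68 in YF (3.41 ± 0.29), and the proteasome subunit Psmb10 fell (-0.83 ± 0.08). Nlrc5 too passed the filter only through libraries other than control. Of 21 chemokine genes and receptors, 10 fell and 2 rose (median -0.36). Ccl7 fell from 31.3 ± 2.27 to 17.3 ± 1.01 CPM (-0.85 ± 0.08) and Ccl20 from 297 ± 41.4 to 195 ± 29 CPM (-0.60 ± 0.14), while the neutrophil attractant Cxcl1 rose (0.48 ± 0.08). In the NF-kB list 7 of 36 rose and 9 fell. The prostaglandin synthase Ptgs2 measured 17.2, 14.2 and 13.9 CPM in control and 61.5, 60.5 and 57.6 in YF (1.99 ± 0.09), and the adhesion molecule Vcam1 fell (-0.60 ± 0.07).

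Of 29 tested genes of the neuronal and REST-repressed list, 13 rose and 2 fell (median 0.50), and the risen share is to be read with the upward lean of the filter at low control levels. The fallen count was 1 without any single library other than control replicate 1 and FK228+YF replicate 2 and with a replicate block, and 0 from the compared groups alone. Ndrg4 has been given, and the microtubule-associated protein genes Map1a and Map2 went from 0.348 ± 0.0655 to 4.15 ± 0.205 and from 2.75 ± 0.291 to 7.61 ± 1.23 CPM. Rest, the repressor of neuronal genes, fell from 18.5 ± 5.63 to 11.6 ± 1.62 CPM (-0.68 ± 0.18, adjusted p = 0.00842). Of 16 tubulin genes 6 rose and none fell, with Tubb2a at 0.67 ± 0.06. Of 68 cytosolic ribosomal protein genes, 21 fell and none rose (median -0.18). The fallen share was 30.9%, against 25.7% among all genes with 100 CPM or more in control. The summed level of the family was 106626, 108293 and 115501 CPM in the control and 92977, 100525 and 96043 CPM in the YF libraries. Its fallen count moved with single libraries: it was 11 and 8 without control replicates 2 and 3, 9 without YF replicate 1 or 3, and 38 and 36 without FK228 replicates 1 and 3, which enter the filter, the scaling and the estimate of spread. DESeq2 called 34. In the nuclear respiratory chain list 45 of 49 genes were not called (median 0.01).

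**Figure D4:**
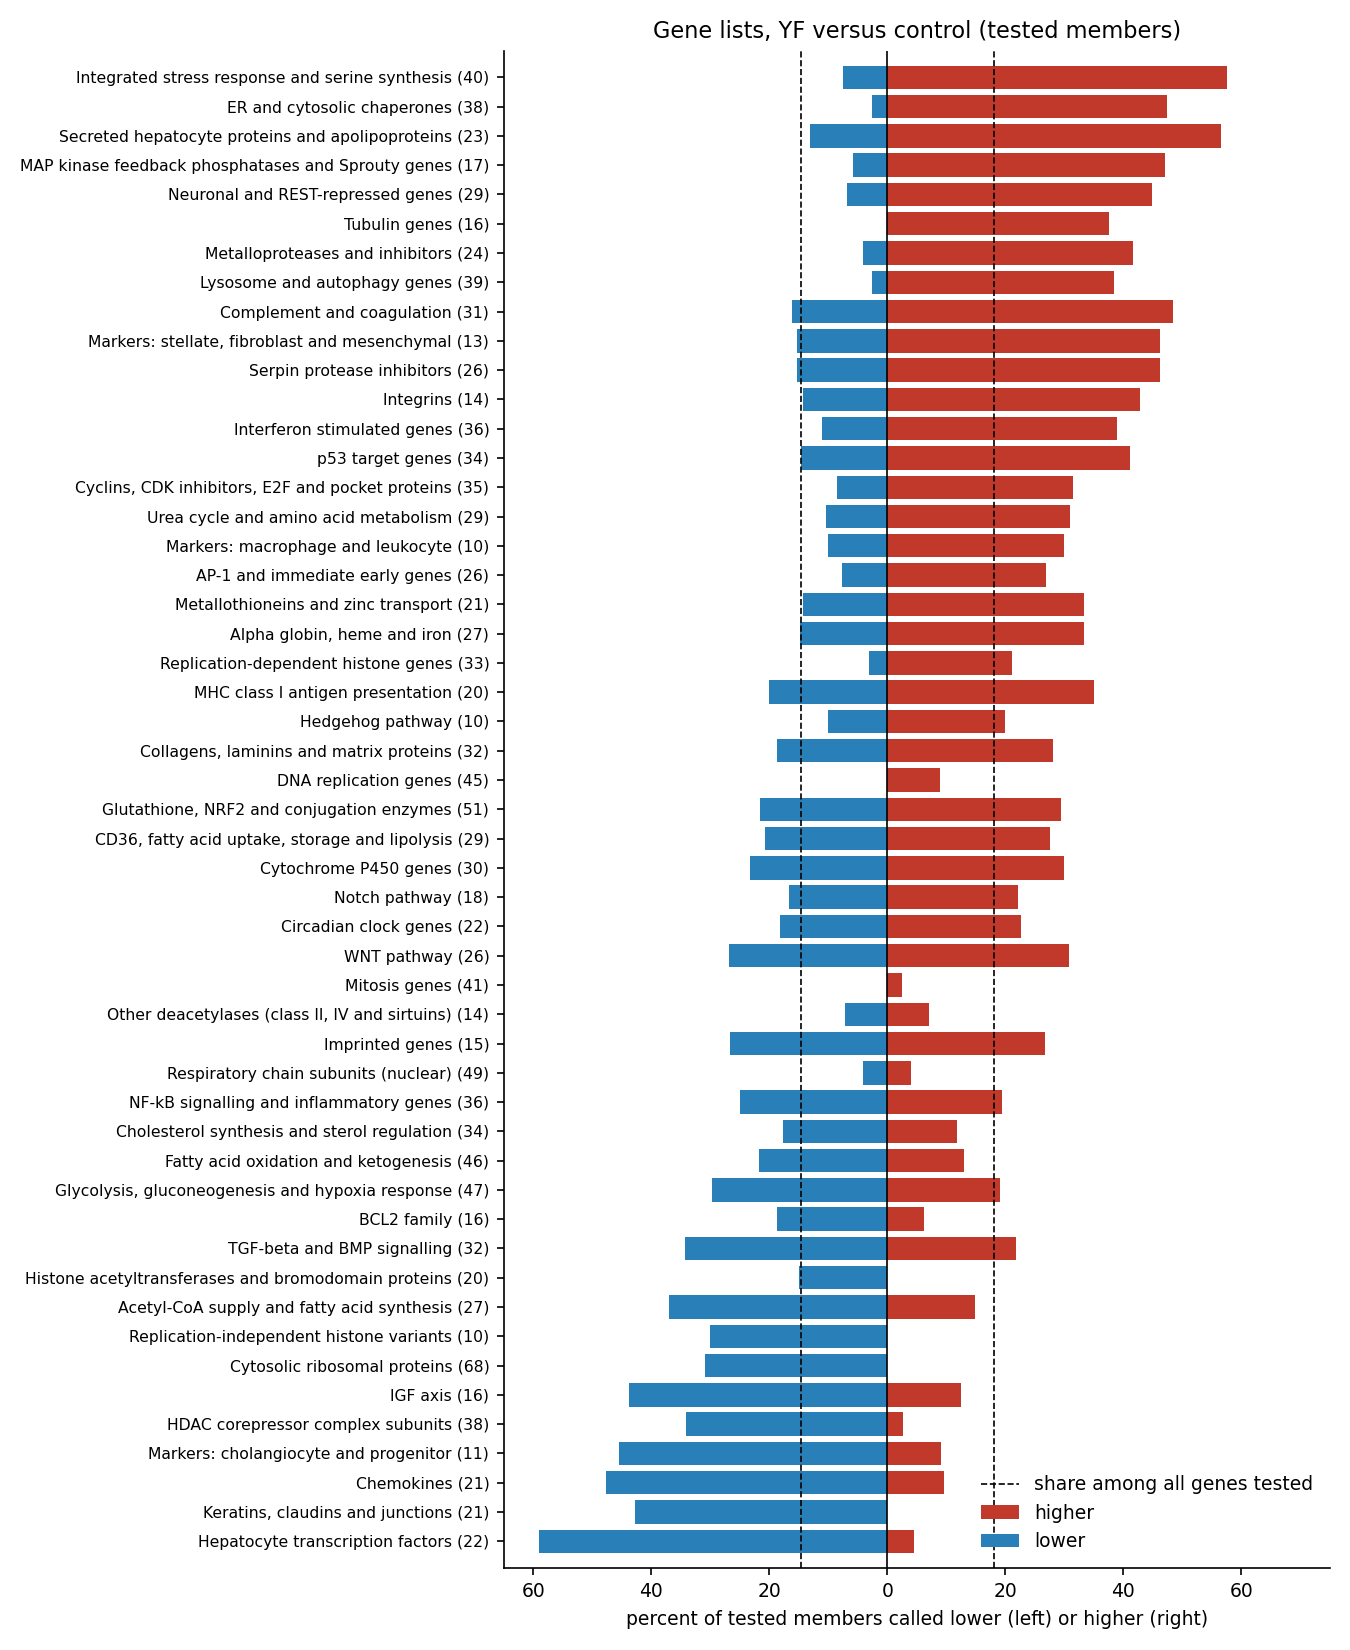
Percent of the tested members of 51 gene lists called higher (red, to the right) or lower (blue, to the left) in YF against control, with the number of tested members in brackets. Dashed lines mark the 18% higher and 14.6% lower among all 13346 genes and are not matched to the level of each list's genes. The integrated stress response list reaches farthest beyond the upper line and the hepatocyte transcription factor list farthest beyond the lower.

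Defining markers of the labelled cell type were mixed in both groups. Among the hepatocyte markers Apob (429 ± 26.2 CPM in control, 393 ± 5.74 in YF), Trf (519 ± 51.6 and 627 ± 32.1), Foxa2 (73.1 ± 0.556 and 71.3 ± 3.4) and the keratins Krt8 and Krt18 were present. Alb, the albumin gene that defines mature hepatocytes, was near zero, with 0.0387, 0.0385 and 0.0389 CPM in control and 0.198, 0.229 and 0.343 in YF, and Ttr was low. Markers of other cell types were checked because a change in cell makeup and a change in RNA per cell cannot be told apart in bulk RNA. Of the macrophage markers, Tyrobp had no count in the 6 libraries and Adgre1 none in control and at most 0.237 CPM in YF, while Ptprc was 1.15 ± 0.366 CPM in control and 1.16 ± 0.212 in YF. Of 10 tested macrophage and leukocyte markers, 3 rose, 1 fell and 6 were not called. Among the risen, Cd68 went from 2.53 ± 0.391 to 6.84 ± 0.682 CPM and Lyz2 from 0.323 ± 0.0436 to 2.36 ± 0.166. The summed level of the whole list was lower with YF, at 148 to 199 CPM in control and 118 to 144 in YF. Of 13 tested mesenchymal markers 6 rose and 2 fell, the latter 1 without control replicate 1 or 3 or YF replicate 1 or 3. The list summed to 1066 to 1142 CPM in control and 1425 to 1570.3 in YF, and the rise of Fn1 alone was larger than the difference between the mean sums. Of its defining genes, Pdgfrb and Lrat had at most 0.0778 CPM in the 6 libraries, and Acta2 was 0.206 ± 0.0966 and 0.337 ± 0.187 CPM. Des, also a defining gene, was called higher (0.77), between 0.62 and 0.90 over the fits that left out 1 library. The values of Pdgfra and Col1a1 are not given here. Of 5 tested endothelial markers 2 rose, Egfl7 (0.72 ± 0.13) and Esam (0.39 ± 0.14), and none fell. The count was 1 without control replicate 1 or 3, YF replicate 1 or 3, FK228 replicate 1 or 2 or FK228+YF replicate 2, with DESeq2, with a replicate block and from the compared groups alone. The list summed to 13.7 to 14.2 CPM in control and 15.7 to 17.5 in YF, and the ranges did not overlap. Its defining genes Pecam1, Cdh5, Kdr and Tek were at or below 0.198 CPM in all 6 libraries. Of 11 tested cholangiocyte and progenitor markers 5 fell and 1 rose (2 without control replicate 1 or YF replicate 2). That list summed to 5973 to 6089 CPM in control and 6423 to 6673 in YF, most of it from Spp1 (4179.6 ± 128 and 5098 ± 93 CPM). The part of these markers in the other results was not tested.

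The YF mutants were also compared within FK228-treated cells, with 3 libraries of FK228 alone and 3 of FK228 with YF, so that the 2 comparisons have no library in common on either side. All 12 libraries share the filter, the scaling and the estimate of spread. There 7063 genes (52.9%) were called, 3549 higher (26.6%) and 3514 lower (26.3%). Of the 2405 genes higher with YF alone, 1418 were also higher with YF in FK228-treated cells, which is 59.0% of the first list and 40.0% of the second. A further 171 were lower there and 816 were not called. Of the 1952 lower genes, 1376 were lower in both, 70.5% of the first list and 39.2% of the second, and 62 were higher in FK228-treated cells. The test of the difference itself called 3531 genes (26.5%), with the YF effect smaller or more negative in FK228-treated cells for 2047 (15.3%) and larger or more positive for 1484 (11.1%). Across 10357 genes with a mean of at least 5 CPM the fold changes of the 2 comparisons had a Pearson r of 0.601, given as a description over genes, which are not independent.

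The genes with large rises had a smaller median change when FK228 was present. The 749 genes at least 2-fold higher with YF had a median change of 2.13 without and 0.83 with FK228, and the difference was called for 389, of which 378 were smaller and 11 larger. These genes were chosen by the first of the 2 values, which also enters the difference. Il11 measured 29.1, 25.6 and 23.9 CPM with FK228 and 52.5, 54.7 and 43.1 with both, so its YF effect was 0.94 against 3.00 (difference -2.06 ± 0.14, adjusted p = 6.4e-08). Hba-a1 already stood at 40.8, 33.1 and 28.8 CPM with FK228 alone and at 138, 104 and 136 with both (1.87 ± 0.20). Fbxo2 was at 24.8 ± 0.674 CPM with FK228 and 33.8 ± 4.07 with both (0.45 ± 0.09). For 2 of the top genes the difference was not called: H3c13 measured 0, 0 and 0.248 CPM with FK228 and 84.3, 84.1 and 95.2 with both, and Fos measured 3.84, 4.01 and 3.02 and 135, 123 and 132 CPM (5.16 ± 0.10). Both H3c13 and Fos were higher in every library with YF than in any without. Hdac1 rose more with YF in FK228-treated cells, to 799, 795 and 798 CPM from 110.5, 113 and 107 (2.86 ± 0.06; difference 0.82 ± 0.08, adjusted p = 4.45e-07), and Hdac8 rose by 1.23 ± 0.07, with no difference called.

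FK228 alone shares its control libraries with the YF comparison, so the values are only set side by side. Of the 13346 genes 68.8% were called with FK228. Ndrg4 changed by 4.33 with YF and 4.12 with FK228, Rgs16 by 3.34 and 4.01, Efna3 by 3.02 and 3.58, and Ass1 by 2.15 and 1.72. For Il11 the values were 3.00 and 0.06 (not called with FK228, adjusted p = 0.661), for Serpina3g 2.73 and 0.38 (adjusted p = 0.0827), and for H3c13 the FK228 level stayed at 0.0827 ± 0.143 CPM. Among the falls, Ggt1 changed by -1.69 with YF and -4.10 with FK228, and Fxyd2 by -2.30 and -2.58. Ndrg1 fell with YF (-1.20) and was not called with FK228 (0.32, adjusted p = 0.0875). Ero1a fell with YF (-0.99) and rose with FK228 (0.62, adjusted p = 0.00412).

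**Figure D5:**
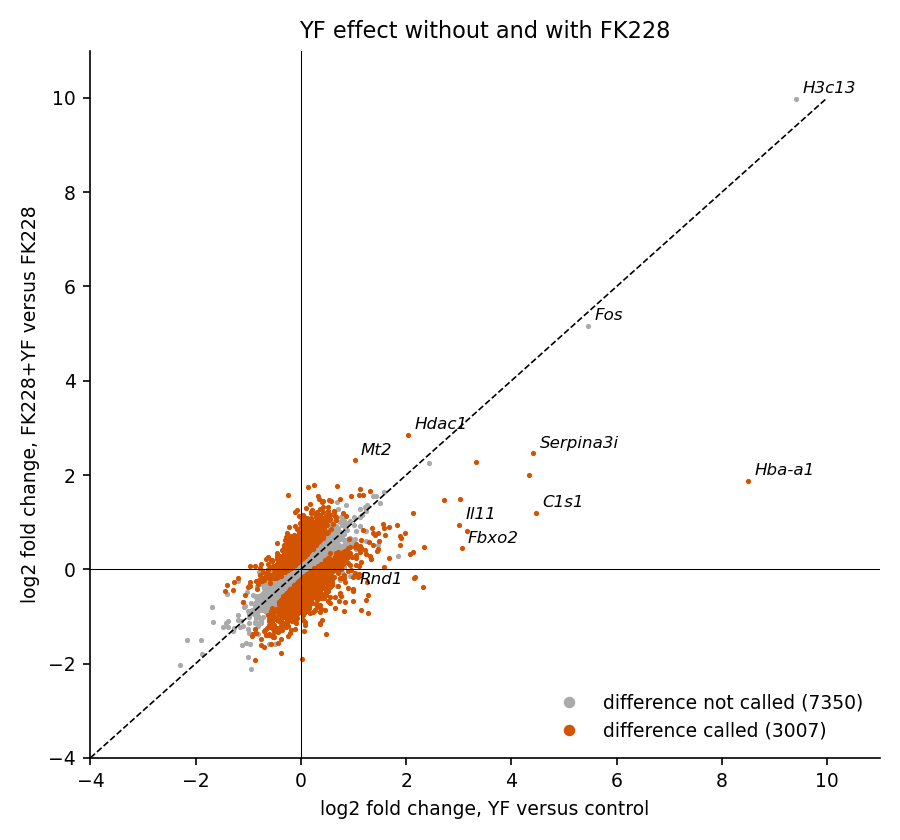
Log2 fold change of FK228+YF over FK228 against that of YF over control for 10357 genes with a mean of at least 5 CPM in the control and YF libraries, with the line of equal change dashed. Orange points are the 3007 genes whose 2 changes differ by the test, grey points the other 7350. H3c13 and Fos lie near the line, and Il11, C1s1, Serpina3i and Hba-a1 lie below it.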

How the data were processed

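RNA was extracted with TRIzol and sequenced as paired reads on a BGISEQ instrument, per the labels' protocols. The authors deposited 1 table of estimated counts and TPM per gene and library. RSEM 1.2.12, the aligners Bowtie2 2.2.5 and HISAT2 2.0.4, the build GRCm38.p6 and DESeq2 1.4.5 are named per the submitters' processing notes, without their roles. The deposited expected counts are of the kind RSEM gives, and 16.6% of their values were not whole. They were rounded before testing. The deposited TPM values, which the authors scaled by gene length and library, were used only to order the class I HDAC genes by level. The sources used here give neither strandedness nor annotation. A further 40 value columns were not used.

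Genes were filtered with filterByExpr over the 4 groups, scaled by TMM and fitted over all 12 libraries with edgeR 4.0.16 in R 4.3.3 (glmQLFit, robust, and glmQLFTest), so that all groups shared an estimate of spread. P-values were adjusted by Benjamini-Hochberg over the 13346 genes tested, with a threshold of 0.05. Fitted fold changes of genes with few control counts depend on the prior count, and for H3c13, Hba-a1 and Cd36 count ratios with exact 95% intervals are given. Gene coordinates came from RefSeq by gene ID (18980 of 19037 matched). Alternatives were RLE factors, no filter, 5 CPM in 3 libraries, DESeq2 1.42.0, voom (limma 3.58.1), the compared groups alone, a replicate block and leaving out each library. The fit was tested on simulated data of 12490 genes. Of 67 genes changed by 0.5 (log2) 88.1% were called, and of 67 changed by 1, 98.5%, with 11 false calls of 201. The changed genes were few and drawn only from genes above a minimum control count. These rates therefore do not cover genes near zero in control. The replicates differed beyond sampling noise, with a chi-square per gene of 3.65 to 15.8.

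Genes named were the class I HDAC genes, the 12 highest and 12 lowest called genes by fold change that had 5 CPM or more on average and groups that do not overlap, the 8 highest and 8 lowest by the same rule with 100 CPM or more in control, up to 5 called members of each list by size of change, and list members described by role. The genes and lists were chosen with earlier results of these data known. Some genes that the rule chose are counted but not reported here by name.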

Additional observations from a re-analysis of the deposited data

Results flagged for a closer look

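For 24 of the 43 genes chosen as class I HDAC genes or by size of change, the YF effect with FK228 present differed from that without it by edgeR's test of the difference (26.5% of all tested genes). Values below are the log2 effect with FK228 minus the effect without. Most of the 43 were chosen by the size of the effect without FK228, which also enters the difference, so the count is not read against that share. The difference was -6.63 for Hba-a1, -3.28 for C1s1, -2.61 for Fbxo2, -2.34 for Chil1, -2.32 for Ndrg4 and -2.06 for Il11. It was -1.96 for Serpina3i, -1.54 for Efna3, -1.26 for Serpina3g and -1.07 for Rgs16. Among abundant genes it was -1.42 for Rnd1, -1.24 for Fn1, -1.02 for Clca3b, -0.97 for Ccn2, -0.92 for Saa3 and -0.51 for Ier3. Mt2 rose more with FK228 present (1.29), as did Hdac1 (0.82) and, by a small amount, Hdac3 (0.24). Among genes that fell with YF the difference was 1.07 for Neurl1b, 1.02 for Ndrg1, 0.996 for Sema3a and 0.40 for Krt19. With FK228 present the YF effect was called for Sema3a (-0.45 ± 0.15) and Krt19 (-0.70 ± 0.09). It was not called for Neurl1b (-0.34 ± 0.22) or Ndrg1 (-0.18 ± 0.15). The difference was also called for 99 of the 219 other list genes named by the rule.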

How the results depend on the processing

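The counts of called genes stayed within 1.5 times under each of the 19 alternatives that gave them. The compared groups alone give no count for the difference of the YF effects. For YF against control 4425 genes were called with RLE factors, 4419 without a filter, 3647 with at least 5 CPM in 3 libraries, 4415 with DESeq2, 4437 with voom and 3783 from the compared groups alone. Leaving out 1 library gave 3380 to 4748 calls (1947 to 2616 higher, 1401 to 2204 lower), 6256 to 7384 with FK228 present and 2843 to 3691 for the difference. Hdac1 stayed between 2.00 and 2.08. The alternatives covered the 252 genes chosen as class I HDAC genes, by size of change or as called list members. Of these, 222 kept their call and direction under every alternative that tested them, 30 did not, and none reversed. The filter of 5 CPM tested fewer of them, of which 225 kept their call and 1 lost it. List members named only for their role were not among the 252, and their calls were not followed through the alternatives. Of 2014 list counts compared, 1829 stayed within 1.5 times. Same-numbered control and YF libraries had deviations that correlated at -0.14, -0.21 and 0.04, and differently numbered ones at -0.06 to 0.20. No pairing by number was seen, but 3 libraries a group are too few to exclude one. With a replicate block 4056 genes were called (2260 higher, 1796 lower), 6800 with FK228 present and 3144 for the difference, and Hdac1 was 2.04. For genes with few counts in control the depth limits the size of a change more than its direction.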

Other observations

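2 genes of the MHC class II pathway, which presents peptides from outside the cell, went from no count in control to low levels with YF. They were picked after their values were seen. H2-Ab1 had 0 counts in the 3 control libraries and 4.9, 3.39 and 4.15 CPM in YF, at least 107-fold higher against a floor of 3 counts over the control group. H2-Eb1 had 0 control counts too and 1.86, 1.52 and 1.83 CPM in YF, at least 44.8-fold higher. Both genes passed the filter only through libraries other than control. Cd74, the chaperone of class II molecules, measured 1.32, 1.54 and 1.17 CPM in control and 7.51, 4.96 and 6.21 in YF (2.21 ± 0.20, edgeR adjusted p = 4.74e-08). Ciita, the coactivator of these genes, was 0.387, 0.886 and 0.544 CPM in control and 0.474, 0.305 and 0.609 in YF, and its change of -0.39 ± 0.45 was not called (edgeR adjusted p = 0.55). With FK228 alone H2-Ab1 measured 3.47, 3.07 and 2.69 CPM.

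Of the tested genes 99 had no control count, and 181 of the 253 with 3 or fewer control counts were called higher. Such genes passed the filter only through other groups. Their count therefore leans upward by construction and is not read against the 18% called higher among all genes. 3 further examples with no control count, Gpnmb, Gng8 and Dmkn, were also picked after their values were seen. Gpnmb, a lysosomal membrane glycoprotein, reached 1.98, 1.03 and 1.07 CPM in YF and was at 0, 0.121 and 0 CPM with FK228. Gng8, a G protein subunit, reached 1.9, 1.26 and 1.64 CPM in YF and 4, 3.6 and 2.77 with FK228. Dmkn, the secreted protein dermokine, reached 1.82, 0.953 and 1.18 CPM in YF and 0.286, 0.931 and 0.537 with FK228. All 3 passed the filter only through treated libraries.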
